A study of Homo sapiens with 9 samples.

Results

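The genes of the proteasome were followed across 9 RNA-seq libraries of HCCLM3, a human hepatocellular carcinoma cell line of high metastatic capacity. Members were chosen by symbol, as rows whose name starts with PSM, a letter from A to G and a number, and 49 of 17492 rows in the gene table matched. Of these, 47 are genes of the proteasome, its activators, its inhibitor or its assembly factors, and 2 match by name only (PSMC3IP and PSME3IP1). The choice used no expression value. PSMB11, the thymus-type catalytic subunit, is not analysed here. The study compared 3 groups, each wild type by its labels: cells given DMSO, the vehicle, as control, cells given quercetin at 50 µM, and cells given quercetin at 100 µM, with 3 libraries in each group. Quercetin is a plant flavonoid. The sources used here do not give the length of treatment. All libraries come from 1 line, and nothing in the labels says that they came from separate cultures, so each p-value measures the spread between these libraries, which may be technical.

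The proteasome is the cell's main protease for proteins tagged with ubiquitin. A barrel-shaped core holds the proteolytic sites in its beta rings, between outer alpha rings that gate the entrance. The regulatory particle on the core has a base, whose ATPases unfold substrates, and a lid, which removes ubiquitin. Dedicated chaperones build the core and the base, alternative activators can replace the regulatory particle, and interferon-inducible catalytic subunits form the immunoproteasome, which favours peptides for antigen presentation. Subunit genes are known for coordinated transcription, in part through NFE2L1, which binds antioxidant response elements when proteasome activity is limiting.

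Total counts per library were between 20061136 and 21599805. Libraries were made from polyadenylated RNA and, per the labels' protocols, underwent a duplex-specific nuclease step, which reduces the most abundant cDNAs. That protocol speaks of tissue although the samples are cultured cells. Control replicate 1 and 100 µM replicate 3 stood apart from their groups: the mean chi-square per gene was 27.6 and 27.4 between control replicate 1 and the other two controls against 3.56 between those, and 83.9 and 86.1 against 5.04 at 100 µM. The counts of calls over all tested proteasome genes, and the genes named whose values moved most with them, are given with and without them. Counts of calls by class and by list use all 9 libraries. The epithelial keratins KRT8 and KRT18 were abundant, KRT8 at 2645.3 to 3726.3 CPM (counts scaled to library size), while the hepatocyte gene ALB, which encodes albumin, was between 0.814 and 16.3 CPM and AFP between 4.15 and 6.75 CPM. Of 7 immune markers 4 were under 1 CPM in all 9 libraries, as were 5 of 7 fibroblast and 2 of 5 endothelial markers.

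Of the 47 proteasome genes, 46 passed the filter on low counts. PSMA8, a testis-type alpha subunit, did not pass: it was at 0 in 8 libraries and at 0.0471 CPM in 100 µM replicate 1. Compared per length, in TPM (transcript abundance corrected for gene length and library size), levels spanned a 90.3-fold range in control, from 8.9 ± 2.67 (SD, n = 3) for the inducible catalytic subunit PSMB9 to 803.6 ± 5.79 for PSMB4, a structural subunit of the beta ring. PSMD4, a ubiquitin receptor of the base, was next at 698.9 ± 20.1 TPM, followed by PSMB7, PSMA7 and PSMA4 at 438.6 ± 28.1, 436.9 ± 6.35 and 436.6 ± 20.6 TPM, which did not differ beyond their spread. Genes whose products stand in equal numbers in the alpha ring differed 4.51-fold in transcript level, with PSMA5 lowest at 97 ± 8.55 TPM. The constitutive beta genes differed 12.1-fold, with PSMB2 lowest at 66.5 ± 3.85 TPM. The inhibitor PSMF1 (20.6 ± 0.836 TPM), PSMB10 (23.4 ± 2.61 TPM), PSME4 (37.7 ± 4.03 TPM) and PSMB8 (38.4 ± 4.87 TPM) lay at the low end.

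**Figure D1:**
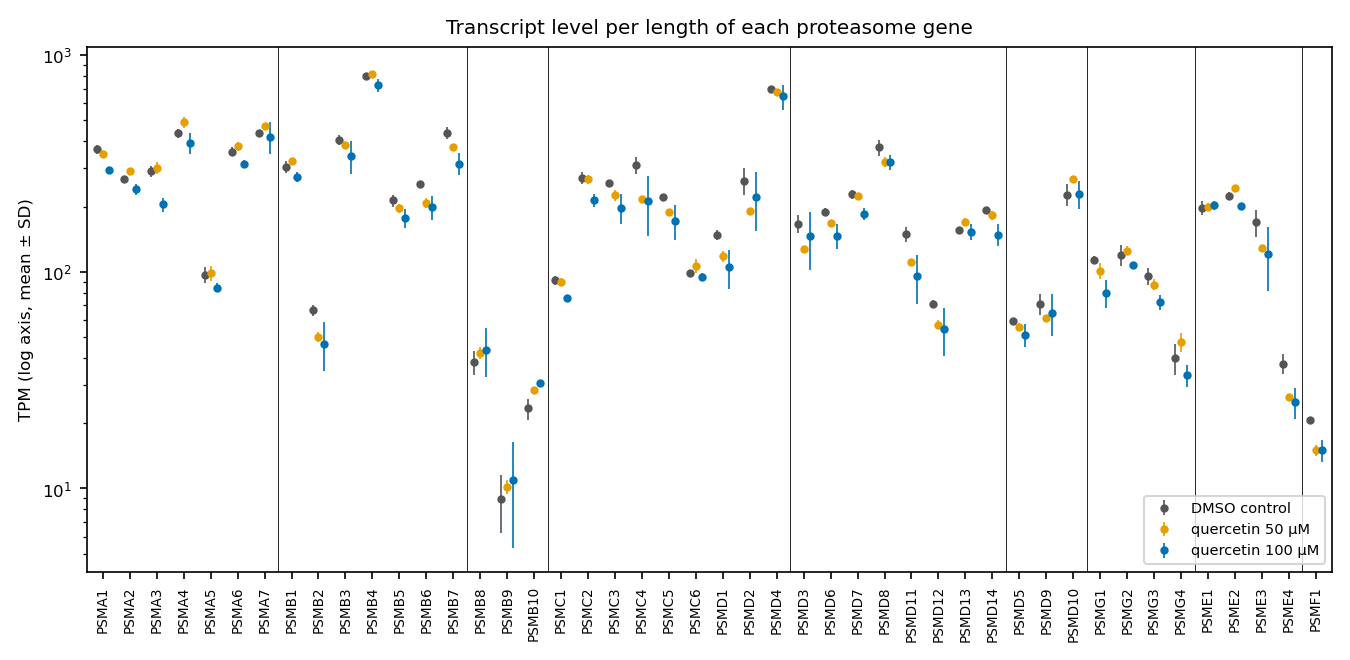
Transcript level of the 46 tested genes in TPM on a log axis, as the mean ± SD of 3 libraries per group, ordered by role (vertical lines separate alpha ring, constitutive beta ring, inducible core, base, lid, base assembly, core assembly, activators and inhibitor). PSMB4 and PSMD4 lie highest and PSMB9 lowest, at 8.9 TPM in control.

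At 100 µM more proteasome genes fell than rose. Against control, 14 of 46 fell and 1, PSMB10, rose at an adjusted p under 0.05 (edgeR quasi-likelihood test, adjusted over all 12832 genes tested). That is 30.4% lower, where 10.3% of all genes tested fell and 10.7% rose. The fitted change was below 0 for 38 of the 46, with a median log2 fold change of -0.19, against 0.001 over all genes tested. The values of the groups did not overlap for 22 genes that were lower and 1 that was higher, where 18.6% and 17.3% of all genes did not overlap in those directions. At an unadjusted p under 0.05, 21 were lower and 1 higher, against 18.4% and 18.2% of all genes. DESeq2 called 18 lower and 1 higher, where 12.9% and 13.4% of all genes were, and limma on log2 FPKM 16 lower and 1 higher, where 11.5% and 8.75% were. The changes were small: the fitted falls past the threshold lay between 1.18-fold (PSMD7) and 1.5-fold (PSMD11).

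The sum over the 47 genes showed the same in level. It was 9996.0, 9952.2 and 10291.6 TPM in the controls, 9834.4, 9345.2 and 9666.7 TPM at 50 µM, and 8880.1, 9093.4 and 7560.2 TPM at 100 µM. In TPM every 100 µM library lay below every 50 µM library, and every 50 µM library below every control. This order was read in TPM only, which, unlike the CPM, were not TMM-scaled. In the fit on TMM-scaled counts the median at 50 µM was -0.02, with 22 genes fitted above control and 24 below. In bulk RNA, fewer expressing cells and less RNA per cell cannot be told apart.

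**Figure D2:**
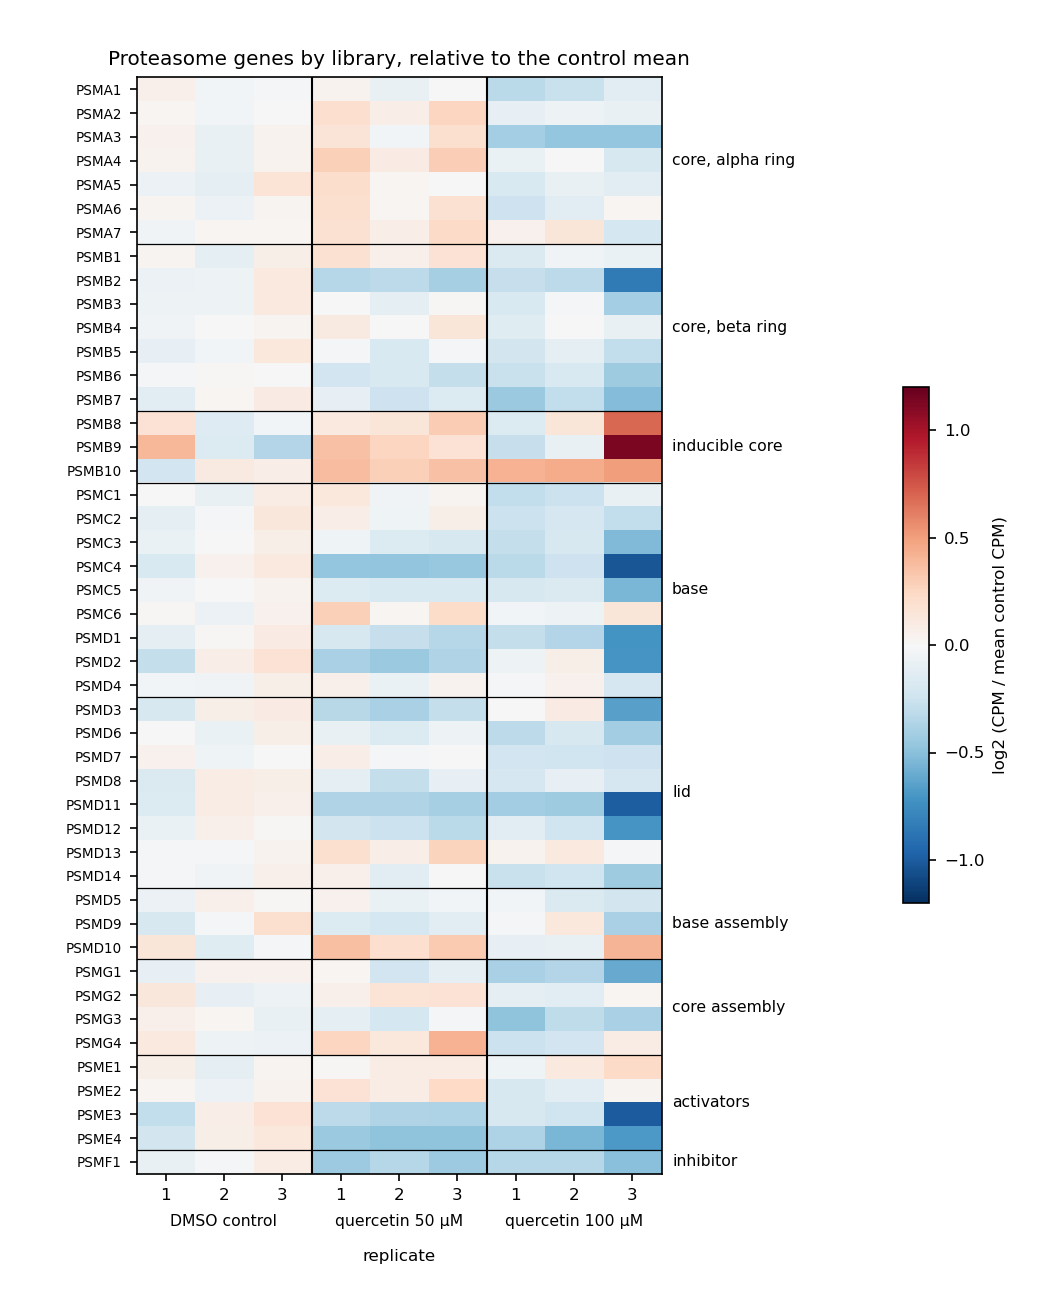
CPM of each tested proteasome gene in each of the 9 libraries, as log2 of its ratio to the control mean (red higher, blue lower), with genes in rows by role and replicates 1 to 3 of each group in columns. The 100 µM columns are blue for most rows, deepest in replicate 3, where PSMC4, PSME3 and PSMD11 are near -1 and PSMB9 is the most intense red.

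Which libraries were used decided the number of calls at 100 µM. Without 100 µM replicate 3 there were 17 lower and 1 higher, where 14.6% of all genes fell and 15.2% rose, and all 15 genes kept their call. With both libraries that stand apart left out, an alternative added after seeing the data, there were 23 lower and 1 higher, again with all 15 kept, but 24.4% of all genes then fell. The 14 falls were in that fit between -0.20 (PSMD7) and -0.55 (PSME4) on the log2 scale, and PSMB10 was at 0.34. PSMB2 and PSMD7 did not keep their call without control replicate 1. Without control replicate 2 the count was 2 lower and 1 higher (PSMA3, PSMF1 and PSMB10), and without control replicate 3 it was 2 lower (PSMA3 and PSMG3). In these fits 3.82% and 3.52% of all genes fell. It was 8 lower without 50 µM replicate 1 or replicate 3, which enter only through the shared estimate of spread (6.71% and 7.08% of all genes lower). With only the groups compared in the fit it was 2 lower, 2 of 46 beside 3.45% of all genes. PSMA3 was the one gene of the 15 called in every fit with 1 library left out. The median stayed below 0 in every fit with 1 library left out, between -0.232 and -0.13.

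Markers of other cells were read in the same libraries. The summed immune markers were 139.0 to 199.6 CPM in control and 216.9 to 297.3 CPM at 100 µM, nearly all of it CD68, a lysosomal glycoprotein typical of macrophages. CD68 rose at 100 µM (log2 0.60, SE 0.153, adjusted p = 0.0237), while PTPRC, the pan-leukocyte marker, was at most 1.06 CPM and CD3E at most 0.0465 CPM in any library. The fibroblast sum was 72.8 to 114.7 CPM in control and 86.3 to 154.8 CPM at 100 µM, mainly LUM, with the collagen genes COL1A1, COL1A2 and COL3A1 under 1 CPM. The endothelial sum was 37.0 to 40.7 CPM in control and 22.2 to 26.8 CPM at 100 µM. The part of these markers in the proteasome result was not tested.

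**Figure D3:**
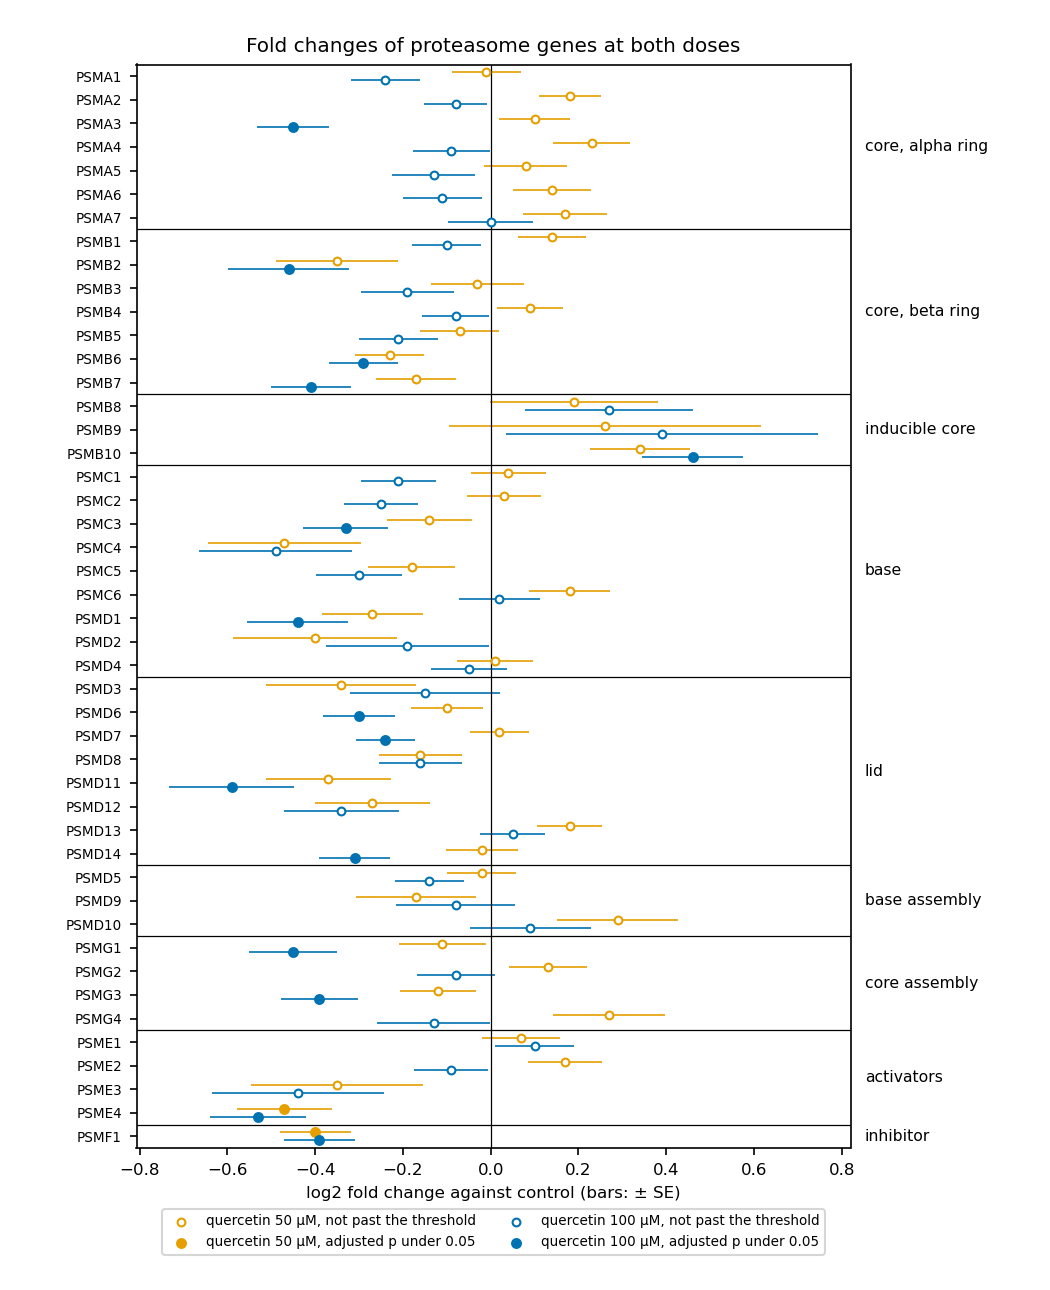
Log2 fold change against control with its SE for the 46 tested genes, at 50 µM (orange) and 100 µM (blue), filled where the adjusted p is under 0.05. At 100 µM 14 filled points lie left of 0 and 1, PSMB10, right of it, while at 50 µM only PSME4 and PSMF1 are filled.

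The alpha ring had 1 call of 7 at 100 µM, 14.3% lower beside 10.3% of all genes. PSMA3, an alpha subunit (chr14:58244843-58272004, GRCh38), had 127.7, 116.0 and 127.0 CPM in control, 137.4, 120.4 and 140.8 CPM at 50 µM, and 93.1, 89.8 and 89.3 CPM at 100 µM. Its 100 µM values lay close together and below all others. It fell 1.36-fold against control (log2 -0.45, SE 0.0817, adjusted p = 0.00615) and kept that call with any single library left out (adjusted p 0.0036 to 0.0366). PSMA1 was at 155.3, 161.5 and 178.6 CPM at 100 µM against 190.4 to 202.7 CPM in control without passing the threshold (log2 -0.24, adjusted p = 0.0563). The other 5 were between -0.13 and 0.00.

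The constitutive beta ring had 3 calls of 7, all lower at 100 µM, 42.9% beside 10.3% of all genes. Among the catalytic subunits, PSMB7, which carries the trypsin-like site, had 174.7, 195.2 and 205.9 CPM in control, 179.2, 161.6 and 170.9 CPM at 50 µM, and 141.2, 156.8 and 134.1 CPM at 100 µM, where it fell 1.33-fold (log2 -0.41, SE 0.0911, adjusted p = 0.013). PSMB6, with the caspase-like site, had 90.8, 93.2 and 92.6 CPM in control, 78.6, 81.0 and 75.8 CPM at 50 µM, and 76.4, 81.2 and 68.5 CPM at 100 µM. It fell 1.22-fold at 100 µM (log2 -0.29, adjusted p = 0.0293), and its value at 50 µM was -0.23 (adjusted p = 0.0796). PSMB5, with the chymotrypsin-like site, did not pass (log2 -0.21, adjusted p = 0.128), although its 80.9 to 91.9 CPM at 100 µM lay below its 92.8 to 108.4 CPM in control. PSMB2, a non-catalytic subunit, had 130.1, 130.5 and 148.2 CPM in control and 112.3, 109.7 and 75.4 CPM at 100 µM, and fell 1.37-fold (adjusted p = 0.0429). Without 100 µM replicate 3, its lowest library, the value was -0.29 (adjusted p = 0.0156) in place of -0.46, and with both libraries that stand apart left out it was -0.32. The call of PSMB2 was lost in 6 of the 9 fits with 1 library left out (highest adjusted p = 0.165), as was that of PSMB6 (highest 0.114). PSMB7 lost its call in 2, those without control replicate 2 or 3.

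The inducible catalytic subunits stood on the other side of 0. PSMB10, the inducible counterpart of PSMB7 (chr16:67934506-67936850), had 8.72, 11.0 and 10.8 CPM in control, 13.2, 12.4 and 13 CPM at 50 µM, and 13.6, 13.9 and 14.4 CPM at 100 µM. No control reached the lowest treated library. It rose 1.37-fold at 100 µM (log2 0.46, SE 0.114, adjusted p = 0.0217), and at 50 µM the value was 0.34 without passing (adjusted p = 0.0773). PSMB8, the counterpart of PSMB5, had 22.2, 17.7 and 19.3 CPM in control and 17.6, 21.8 and 31.8 CPM at 100 µM (log2 0.27, adjusted p = 0.345). PSMB9, the counterpart of PSMB6, had 5.3, 3.58 and 3.15 CPM in control and 3.3, 3.77 and 8.75 CPM at 100 µM (log2 0.39, adjusted p = 0.459). Both values came from 1 library: without 100 µM replicate 3 they were 0.01 for PSMB8 and -0.18 for PSMB9, while PSMB10 was 0.44 (adjusted p = 0.0168). At 50 µM neither PSMB8 nor PSMB9 passed with all 9 libraries. With both libraries that stand apart left out, PSMB8 was at 0.29 (adjusted p = 0.0115) and PSMB9 at 0.51 (adjusted p = 0.00798) at 50 µM. In that fit they were at 0.10 (adjusted p = 0.444) and 0.08 (adjusted p = 0.761) at 100 µM. The call of PSMB10 was lost without control replicate 3 (highest adjusted p over all fits with 1 library left out, 0.0544).

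The ratio of an inducible subunit to its constitutive counterpart was read in TPM. PSMB10 per PSMB7 was 0.0503, 0.0569 and 0.0528 in control, 0.0744, 0.0776 and 0.0765 at 50 µM, and 0.0971, 0.089 and 0.108 at 100 µM. The 3 groups did not overlap, and each pair of groups gave p = 0.1 in a two-sided exact permutation test, the smallest that 3 against 3 allows. PSMB8 per PSMB5 was 0.181 ± 0.0309 (SD, n = 3) in control, with 0.197, 0.224 and 0.225 at 50 µM and 0.187, 0.214 and 0.357 at 100 µM. Its 50 µM libraries overlapped the controls, the highest of which was 0.216 (p = 0.2 in the same permutation test). PSMB9 per PSMB6 was 0.0349 ± 0.0103 in control, with 0.0523, 0.0472 and 0.0478 at 50 µM and 0.0346, 0.0371 and 0.102 at 100 µM. Its 50 µM libraries all lay above the controls, the highest of which was 0.0467 (p = 0.1 in the same permutation test). For both of these, 100 µM replicates 1 and 2 lay within the range of the controls and replicate 3 above it.

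**Figure D4:**
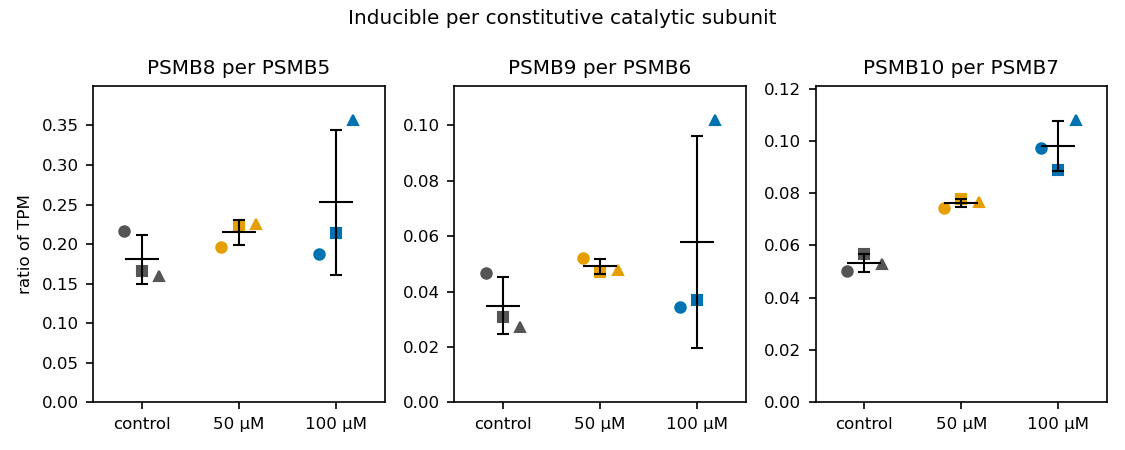
Ratio of TPM of each inducible catalytic subunit to its constitutive counterpart per library (circle, square and triangle for replicates 1, 2 and 3; bars mean ± SD, n = 3). PSMB10 per PSMB7 separates the 3 groups, from 0.0503 to 0.108, while the other ratios at 100 µM are set by replicate 3.

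The base had 2 calls of 9 at 100 µM, both lower, 22.2% beside 10.3% of all genes. PSMC3, an ATPase, had 170.6, 181.4 and 190.1 CPM in control and 148.0, 157.9 and 125.2 CPM at 100 µM and fell 1.26-fold (adjusted p = 0.039). PSMC3 was at -0.27 with both libraries that stand apart left out, and its call was lost in 6 of the 9 fits with 1 library left out (highest adjusted p = 0.154). PSMD1, the large scaffold subunit, had 209.1, 228.1 and 242.3 CPM in control, 197.7, 186.8 and 179.1 CPM at 50 µM, and 185.8, 177.8 and 137.7 CPM at 100 µM. It fell 1.36-fold (log2 -0.44, SE 0.115, adjusted p = 0.026), and was at -0.36 without both of those libraries. The call of PSMD1 was lost without control replicate 2 or 3 or 50 µM replicate 1. Of the rest, the ATPase PSMC4 had a larger value, -0.49, but a wide error (SE 0.175, adjusted p = 0.0746): its controls were 217.7, 255.9 and 267.9 CPM and its 100 µM libraries 197.8, 208.1 and 121.7 CPM. Without 100 µM replicate 3 PSMC4 was at -0.28 and passed (adjusted p = 0.0326). PSMC6 and PSMD4 stayed near 0, at 0.02 and -0.05.

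PSMD2, a base scaffold, and PSMD3, a lid subunit, spanned a wider range within the 100 µM group than between group means. PSMD2 had 289.7, 371.4 and 396.4 CPM in control, 269.3, 258.2 and 274.2 CPM at 50 µM, and 339.0, 369.5 and 215.8 CPM at 100 µM. PSMD3 had 143.5, 172.5 and 176.1 CPM in control, 130.4, 125.0 and 134.5 CPM at 50 µM, and 164.6, 175.6 and 104.5 CPM at 100 µM. In each gene, control replicate 1 and 100 µM replicate 3, the libraries that stand apart, were the lowest of their groups. With both left out, PSMD2 was at -0.52 at 50 µM (adjusted p = 6.91e-09) and -0.11 at 100 µM (adjusted p = 0.154), and PSMD3 at -0.42 (adjusted p = 3.42e-07) and -0.03 (adjusted p = 0.751).

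The lid had 4 calls of 8 at 100 µM, all lower, beside 10.3% of all genes. All 4 were lost without control replicate 2 or without control replicate 3, and PSMD11 was the one kept with a replicate block. PSMD11, a lid scaffold subunit (chr17:32421286-32483319), had 237.5, 282.3 and 278.2 CPM in control, 207.4, 207.7 and 202.2 CPM at 50 µM, and 198.6, 197.9 and 134.1 CPM at 100 µM. Every treated library lay below every control. It fell 1.5-fold at 100 µM (log2 -0.59, SE 0.143, adjusted p = 0.0195), and without 100 µM replicate 3 its value was -0.41 (adjusted p = 0.00315). PSMD14, the deubiquitinase of the lid, had 134.6, 132.8 and 142.0 CPM in control and 113.3, 115.8 and 101.4 CPM at 100 µM and fell 1.24-fold (adjusted p = 0.0265). PSMD14 was at -0.25 with both libraries that stand apart left out. Its structural partner PSMD7 had 174.7, 162.7 and 169.5 CPM in control, 178.4, 167.2 and 169.3 CPM at 50 µM, and 144.3, 143.6 and 142.3 CPM at 100 µM. PSMD7 fell 1.18-fold, the smallest fall past the threshold (SE 0.0665, adjusted p = 0.0335). Its call was lost in 8 of the 9 fits with 1 library left out (highest adjusted p = 0.118) and without the filter on low counts. PSMD6 fell 1.24-fold (adjusted p = 0.028), was at -0.24 without both libraries that stand apart, and lost its call in 5 of the 9 fits. PSMD13 was at 0.05 and PSMD8 at -0.16, neither past the threshold.

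With all 9 libraries, the chaperones of the base, PSMD5, PSMD9 and PSMD10, had 0 calls in each comparison in edgeR, DESeq2 and limma. They also had 0 at an unadjusted p under 0.05 in edgeR. By comparison and direction, 1.89% to 10.7% of all genes were called in edgeR, 5.24% to 13.4% in DESeq2 and 1.93% to 11.5% in limma. At the unadjusted p the shares were 10.6% to 18.4%. With 3 genes, 0 calls cannot be told apart from these shares. PSMD10, known as gankyrin and as a liver oncoprotein, had 165.8, 135.8 and 147.7 CPM in control, 192.2, 172.5 and 186.1 CPM at 50 µM, and 140.1, 141.1 and 198.2 CPM at 100 µM. Its 50 µM libraries lay above all controls (log2 0.29, adjusted p = 0.174). At 100 µM its libraries spanned the control range and beyond (log2 0.09, adjusted p = 0.658). Without 100 µM replicate 3, its highest library there, PSMD10 passed as higher at 50 µM than in control (edgeR adjusted p = 0.0132). In that fit it was also lower at 100 than at 50 µM (adjusted p = 0.0101). In the authors' deposited table its q at 50 µM was 0.0125.

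The chaperones of the core, PSMG1 to PSMG4, work as heterodimers, PSMG1 with PSMG2 and PSMG3 with PSMG4, in building the alpha ring. At 100 µM 1 gene of each pair fell, 2 of 4 genes beside 10.3% of all genes. PSMG1 (chr21:39174769-39183514) had 50.4, 55.9 and 56.1 CPM in control, 55.0, 46.1 and 49.8 CPM at 50 µM, and 41.2, 42.4 and 35.5 CPM at 100 µM, a 1.36-fold fall (log2 -0.45, SE 0.1, adjusted p = 0.0139). PSMG3 had 43.8, 42.6 and 39.4 CPM in control, 38.6, 36.3 and 41.1 CPM at 50 µM, and 29.9, 34.0 and 32.0 CPM at 100 µM, a 1.31-fold fall (log2 -0.39, SE 0.0872, adjusted p = 0.0135). Their partners did not pass: PSMG2 had 53.1 to 62.6 CPM in control and 51.6 to 57.6 CPM at 100 µM (log2 -0.08, adjusted p = 0.56), and PSMG4 14.7 to 16.7 and 12.9 to 16.4 CPM (log2 -0.13, adjusted p = 0.504). The difference between partners was not tested.

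Of the activators, PSME4 fell at both doses. PSME4, a large nuclear activator linked to the degradation of acetylated histones (chr2:53864069-53970993), had 109.4, 133.4 and 138.9 CPM in control, 93.7, 91.3 and 91.2 CPM at 50 µM, and 98.4, 86.7 and 78.9 CPM at 100 µM. Every treated library lay below every control. The fall was 1.38-fold at 50 µM (log2 -0.47, SE 0.109, adjusted p = 0.027) and 1.45-fold at 100 µM (log2 -0.53, SE 0.109, adjusted p = 0.00962). PSME3, the nuclear relative of PSME1 and PSME2, had 203.7, 263.6 and 280.3 CPM in control and 217.5, 210.6 and 124.4 CPM at 100 µM (log2 -0.44, SE 0.196, adjusted p = 0.139). PSME3 was at -0.21 (adjusted p = 0.184) without 100 µM replicate 3, and with both libraries that stand apart left out at -0.34 (adjusted p = 3.49e-05). PSME1 and PSME2, which form the interferon-inducible activator, were at 0.10 (adjusted p = 0.425) and -0.09 (adjusted p = 0.442), with 78.8 to 89.9 and 76.2 to 82.7 CPM in control and 82.6 to 99.9 and 70.1 to 82.1 CPM at 100 µM.

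PSMF1, which inhibits the isolated core (chr20:1113263-1179952), had 73.4, 77.3 and 82.8 CPM in control, 57.7, 61.3 and 57.6 CPM at 50 µM, and 61.6, 61.5 and 55.0 CPM at 100 µM. The treated libraries of both doses overlapped each other and lay below all controls. It fell 1.32-fold at 50 µM (log2 -0.40, SE 0.081, adjusted p = 0.0181) and 1.31-fold at 100 µM (log2 -0.39, SE 0.081, adjusted p = 0.0101).

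**Figure D5:**
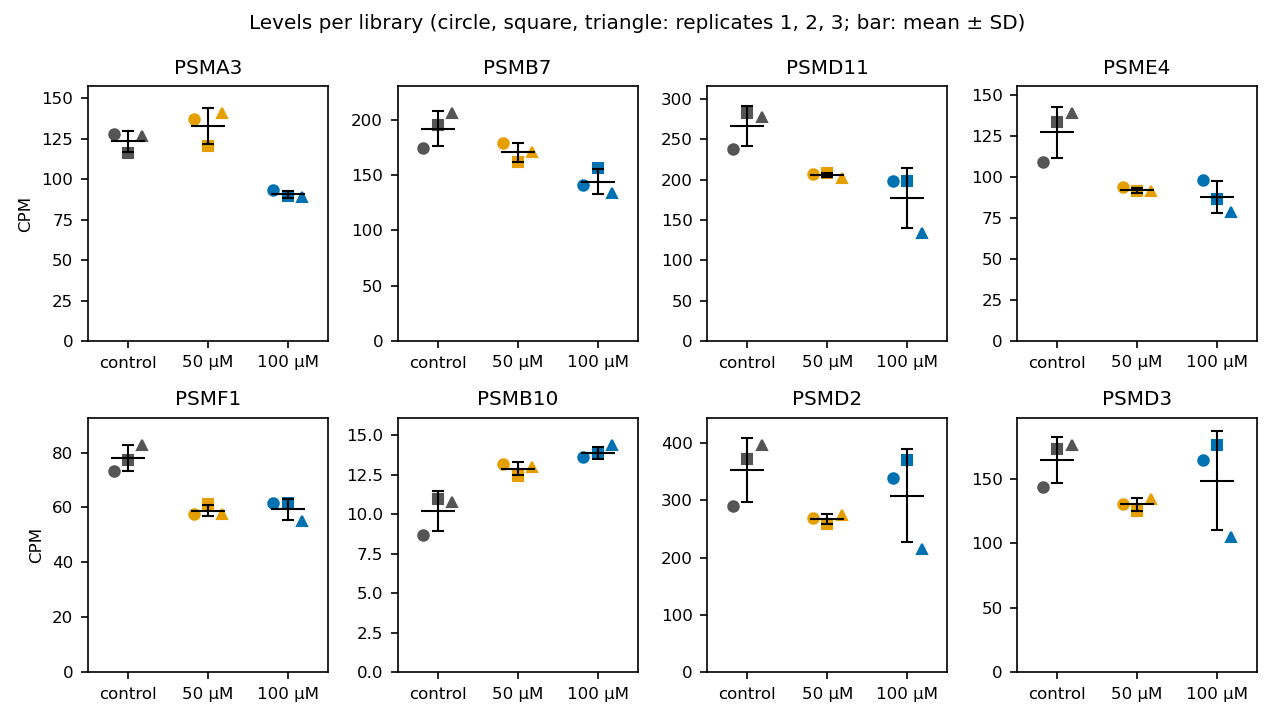
CPM per library for 8 genes (circle, square and triangle for replicates 1, 2 and 3; bars mean ± SD, n = 3; axes start at 0). PSMA3 is low at 100 µM alone, PSME4 and PSMF1 are low at both doses, PSMB10 is high at both, and PSMD2 and PSMD3 show 100 µM replicate 3 far below its group.

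At 50 µM the proteasome genes as a group were near control. PSME4 and PSMF1 were the 2 genes of 46 that fell (4.3%, where 6.31% of all genes tested fell), and 0 rose, where 5.28% of all genes rose. At an unadjusted p under 0.05 in edgeR, 4 were higher and 7 lower, against 15.2% and 17% of all genes. DESeq2 called 1 higher and 3 lower, where 9.41% and 10.6% of all genes were, and limma on log2 FPKM 1 higher and 2 lower, where 5.34% and 5.11% were. The median was -0.02, against 0.003 over all genes. Values did not overlap for 8 genes that were higher and 12 that were lower, where the shares over all genes were 24.4% and 24.6%. Both calls were lost without control replicate 2 or 3 and without any 1 of the 50 µM libraries. Without 100 µM replicate 3, which enters through the shared estimate of spread, there were 7 higher and 12 lower, with 18.4% and 18.2% of all genes, and with both libraries that stand apart left out 14 higher and 16 lower, with 28.5% and 28.9%.

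By class, 6 of 7 alpha ring genes were fitted above control at 50 µM, as were 4 of 9 base, 2 of 8 lid and 2 of 7 constitutive beta genes, with 0 calls in each of these classes. Differences between classes were not tested. The median of the alpha ring was 0.14, against 0.003 over all genes. Of its 7 genes 3 lay above control without overlap, where 24.4% of all genes did: PSMA2 (log2 0.18), PSMA4 (0.23) and PSMA7 (0.17). PSMA4 had 269.2, 245.0 and 269.9 CPM in control and 319.2, 280.0 and 320.2 CPM at 50 µM (adjusted p = 0.109). In the base the ATPase PSMC4 was tight and low at 50 µM, at 178.9, 177.8 and 180.4 CPM (log2 -0.47, adjusted p = 0.106), while the ATPase PSMC6 was at 0.18 (adjusted p = 0.207). PSMD11 (log2 -0.37, adjusted p = 0.111) and PSMB2 (log2 -0.35, adjusted p = 0.117) also lay below all controls. None of these passed the threshold with all 9 libraries. With both libraries that stand apart left out, PSMA4 was at 0.25 (adjusted p = 0.00119) and PSMC4 at -0.55 (adjusted p = 1.3e-09).

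Between the doses, 1 gene of 46 differed. PSMA3 was 1.46-fold lower at 100 than at 50 µM (log2 -0.55, SE 0.0817, adjusted p = 0.0114), where 1.89% of all genes were lower and 2.25% higher. No proteasome gene was higher, in edgeR at an adjusted or an unadjusted p under 0.05 (11.4% of all genes at the latter), in DESeq2 (5.53% of all genes) or in limma on log2 FPKM (1.93%). At an unadjusted p under 0.05, 18 were lower, against 10.6% of all genes. DESeq2 called 10 lower, against 5.24% of all genes, and limma 4, against 2.96%. Of the 46, 38 were fitted below 0, with a median of -0.16 against 0.012. Values did not overlap for 19 genes that were lower and 1 that was higher, PSMB10, where the shares over all genes were 14.4% and 13.3%. All 7 alpha ring genes were fitted lower, from -0.55 to -0.16, as were all 4 PSMG genes, from -0.40 (PSMG4) to -0.21 (PSMG2).

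The call of PSMA3 between the doses was lost without 50 µM replicate 1 or 3, and PSMD7 joined it without control replicate 1. Without 100 µM replicate 3 there were 16 lower and 2 higher, with 13.4% and 14.1% of all genes. The higher ones were PSMD2 (log2 0.41, adjusted p = 0.0221) and PSMD3 (0.39, adjusted p = 0.01). With both libraries that stand apart left out there were 21 lower and 5 higher, with 22.7% and 24.6% of all genes. The comparisons with control share the control libraries, and both comparisons of the 100 µM group share its libraries.

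In the authors' deposited table, with a q under 0.05, 0 proteasome genes were higher and 9 of 47 lower at 100 µM, where 5.97% and 5.26% of all genes with a q were. At 50 µM that table had 2 higher and 12 lower of 46, where 10.4% and 12% of all genes were. Between the doses it had 0 higher and 5 lower of 47, where 3.16% and 2.7% of all genes were.

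Promoter sequences were read for the same genes. RefSeq windows (GRCh38.p14) from 250 bases before to 50 after a start were given for 41 of the 47 genes, 50 windows in all. PSMA7, PSMB1, PSMB6, PSMB7, PSMD4 and PSMG3 were not matched. The letters CCAAT, the box bound by NF-Y, were found on either strand in 38.0% of proteasome windows and in 34.6% of all 35116 windows. Of the 11 genes with a window that fell at 100 µM 7 held them, and of the other 30 genes 12. The letters TGACNNNGC, the core of the antioxidant response element, were found in 30.0% of proteasome windows and 13.3% of all windows. They were in 3 of the 11 (PSMD1, PSME4 and PSMG1) and 12 of the other 30. The motifs overlapped in 0 windows. A match is a description of letters and not a site shown to be bound. Stretches upstream of genes that fell are shown 5′ to 3′ on the strand of the gene, with each match in capitals, since these are the genes that the comparison at 100 µM turns on. Matches that did not end before the start, or that lay inside the listed span of the gene, are not shown. These are CCAAT in PSMB2, which began 2 bases before the start, CCAAT in PSMD6, and TGACNNNGC in PSMD1.
PSMA3, CCAAT, plus strand, chr14:58244815-58244839: ggcagttcagCCAATgagcgggcct
PSMC3, CCAAT, minus strand, chr11:47426539-47426563: cgcgtgtcggCCAATagcggcccca
PSMD14, overlapping CCAAT on each strand, plus strand, chr2:161308370-161308394: gtcgtctCCAATTGGccgtcgggga
PSMD7, CCAAT, plus strand, chr16:74296606-74296630: acggtacaggCCAATaccaggaggt
PSMG1, CCAAT, minus strand, chr21:39183672-39183696: accccctcccCCAATctgtaattta
PSMG1, TGACNNNGC, minus strand, chr21:39183616-39183644: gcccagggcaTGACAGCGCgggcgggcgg
PSME4, TGACNNNGC read on the other strand, minus strand, chr2:53971009-53971037: cccggcggctGCAGCGTCAccagcagagc
The matches shown began 18 bases before the start in PSMA3, 48 and 45 in PSMD14, 114 in PSMC3 and 198 in PSMD7. PSMA3 held a further CCAAT, on the other strand, 35 bases before its start. In PSMG1 they began at 235 and 183 bases, and in PSME4 at 34 bases. PSMG1 was the one gene of the 11 with both motifs.

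The genes around the proteasome were read from fixed lists. Of 12 other subunits, assembly factors and bound proteins, 4 fell and 0 rose at 100 µM (33.3% lower, beside 10.3% of all genes), with a median of -0.22. At an unadjusted p under 0.05 in edgeR 5 were lower and 1, SEM1, higher, beside 18.4% and 18.2% of all genes. DESeq2 and limma each called 5 lower, beside 12.9% and 11.5% of all genes, and 0 higher. AKIRIN2, which aids nuclear import of proteasomes, had 52.6, 78.8 and 75.3 CPM in control and 46.7, 47.6 and 44.0 CPM at 100 µM (log2 -0.58, adjusted p = 0.0166). Control replicate 1 was its lowest control, and without that library AKIRIN2 was at -0.73 (adjusted p = 0.000714). With both libraries that stand apart left out it was at -0.70. The deubiquitinases bound to the regulatory particle, USP14 and UCHL5, fell by 0.45 (adjusted p = 0.0113) and by 0.44 (adjusted p = 0.00647) on the log2 scale. The calls of AKIRIN2 and USP14 were lost without control replicate 2 or 3, and that of UCHL5 in none of the 9 fits with 1 library left out. The ubiquitin ligase UBE3C also fell (log2 -0.39, adjusted p = 0.0455), close to the threshold. It had 159.4, 187.1 and 196.6 CPM in control and 155.6, 143.3 and 116.3 CPM at 100 µM. The libraries that stand apart were its lowest in both groups, and its q in the authors' deposited table was 0.103. At 50 µM SEM1, a small lid subunit, rose (log2 0.42, adjusted p = 0.0308), with 192.6 to 203.3 CPM against 134.5 to 168.0 CPM in control, and ECPAS, a proteasome adaptor, fell (log2 -0.39, adjusted p = 0.023). Each of these calls was lost in 5 of the 9 fits. SEM1 was at 0.24 (adjusted p = 0.12) at 100 µM.

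Of 11 genes of the NFE2L1 pathway, 1 rose and 2 fell at 100 µM, 9.1% and 18.2%, where 10.7% and 10.3% of all genes did. NFE2L1 itself had 272.7, 267.2 and 257.8 CPM in control, 256.1, 264.5 and 261.7 CPM at 50 µM, and 308.8, 305.9 and 295.3 CPM at 100 µM. Its 100 µM libraries lay above all others, and it did not pass (log2 0.19, adjusted p = 0.0672). The small MAF partner MAFF rose 1.96-fold at 100 µM (log2 0.97, adjusted p = 0.0019), from 12.7, 17.7 and 14.8 to 28.0, 32.4 and 28.1 CPM, and was also higher than at 50 µM (log2 0.96, adjusted p = 0.00907). With 1 library left out, its call against control was lost in 0 of the 9 fits. Its call between the doses was lost without 50 µM replicate 1 or 2 (highest adjusted p = 0.0633). NFE2L2, the oxidative stress relative, and MAFG fell (log2 -0.36, adjusted p = 0.0347, and -0.30, adjusted p = 0.0324). Their calls were lost in 7 and 6 of the 9 fits with 1 library left out (highest adjusted p = 0.152 and 0.146). At 50 µM 0 of 11 passed in either direction in edgeR, with 2 lower and 0 higher at an unadjusted p under 0.05 (17% and 15.2% of all genes). DESeq2 called 2 lower there and limma 0, where 10.6% and 5.11% of all genes were lower.

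Among the ubiquitin and E1 genes, UBA6, an E1 enzyme, fell at 100 µM (log2 -0.37, adjusted p = 0.0209). Of 14 shuttle factors and p97 cofactors, which bring substrates to the proteasome, 2 fell and 0 rose at 100 µM, 14.3% lower beside 10.3% of all genes: FAF1 (log2 -0.51, adjusted p = 0.00345) and ZFAND2A (log2 -0.48, adjusted p = 0.025). DESeq2 and limma also called 2 lower and 0 higher (12.9% and 11.5% of all genes lower), and 3 were lower and 1 higher at an unadjusted p under 0.05 in edgeR (18.4% and 18.2% of all genes). The call of ZFAND2A was lost without control replicate 2 or 3 or 100 µM replicate 1. ZFAND2A also fell at 50 µM (log2 -0.68, adjusted p = 0.0143), a call lost in 5 of the 9 fits with 1 library left out. In this list 13 of 14 were fitted below control at each dose, with a median of -0.18 at 50 µM and -0.12 at 100 µM against 0.003 and 0.001 over all genes.

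Of 13 tested genes of interferon signalling and antigen processing, which include the steps after the immunoproteasome, 7 rose and 1 fell at 100 µM, 53.8% and 7.7% where 10.7% and 10.3% of all genes did, with a median of 0.37. At 50 µM 1 rose and 1 fell, beside 5.28% and 6.31% of all genes. HLA-B rose 2.32-fold (log2 1.21, adjusted p = 0.0141), IRF9, a subunit of the interferon-activated factor, 1.89-fold (log2 0.92, adjusted p = 0.0284), and HLA-C 1.8-fold (log2 0.85, adjusted p = 0.000436). HLA-B was at 0.93, IRF9 at 0.66 and HLA-C at 0.81 without 100 µM replicate 3, and with both libraries that stand apart left out they were at 1.16, 0.86 and 0.85. The call of HLA-B was lost without control replicate 2 or 3, and that of IRF9 in 4 of the 9 fits. B2M, TAPBP and STAT2 were among the others. B2M, the light chain of class I molecules, had 591.2, 532.6 and 538.3 CPM in control, 804.2, 738.2 and 769.9 CPM at 50 µM, and 690.6, 728.3 and 905.5 CPM at 100 µM. It rose at both doses (log2 0.48 at each, adjusted p = 0.025 and 0.0138). The call of B2M was lost in 5 of the 9 fits at 50 µM and in 2 at 100 µM. TAP2, a subunit of the peptide transporter, fell at 50 µM (log2 -0.34, adjusted p = 0.0293) and at 100 µM (log2 -0.64, adjusted p = 0.00125). Its call was lost in 5 of the 9 fits at 50 µM and in 0 at 100 µM. Between the doses HLA-C (log2 0.61, adjusted p = 0.00768) and TAPBP (log2 0.40, adjusted p = 0.047) were higher at 100 µM. Their calls between the doses were lost in 3 and 6 of the 9 fits (highest adjusted p = 0.0592 and 0.181).

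Of the genes that match by name only, PSMC3IP, a meiotic recombination factor, was at -0.06 at 100 µM (adjusted p = 0.812), and PSME3IP1, a partner of PSME3, at -0.01 (adjusted p = 0.943). Neither passed in any comparison. Some values may include reads of neighbours or copies. The sources used here do not say whether reads were counted by strand, and PSMC1, PSMC2, PSMC5, PSMD1, PSMD10 and PSMG2 overlap another gene in the table. The gene overlapping PSMD1, HTR2B, was at most 0.0913 CPM. Pseudogenes named after them are listed in RefSeq for 21 of the 47 genes, PSMA3, PSMB7, PSMC3, PSMD7, PSMD14 and PSMG3 among those that fell.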

How the data were processed

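Poly(A) RNA-seq of 9 HCCLM3 samples was used. Per the submitters' processing notes, HISAT2 2.0.4, Bowtie2 2.2.5, RSEM 1.2.12 and build GRCh38.p13 were used, with roles not given. The authors deposited expected counts per gene (rounded here), TPM and FPKM of each library, and q-values beside log2 ratios for each comparison. Per the labels, each group has 3 samples. From the counts, edgeR 4.0.16 (limma 3.58.1, R 4.3.3) fitted all 9 libraries by quasi-likelihood with TMM scaling, after a filter (count minimum 10, total 15, share 0.7) that left 12832 genes; SE is the log2 fold change over the root of F. CPM are TMM-scaled. TPM served for levels between genes. DESeq2 1.42.0, limma on log2 FPKM (pseudocounts 1 and 0.1) and other settings were alternatives. The test was checked on simulated data. Members and lists were chosen with earlier results of these data known. Named by rule: the largest rise and fall past the threshold in each class, PSMB5 to PSMB10, PSME, PSMF and PSMG genes, and the 3 largest changes past the threshold per pathway list. Others were chosen after their values were seen. A few named results are not reported here.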

Additional observations from a re-analysis of the deposited data

How the results depend on the processing

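Scaling by RLE or by library size alone, and no filter on low counts, moved no count of proteasome genes by over 1.5 times. Over all 18 alternatives the median log2 fold change of the proteasome genes was between -0.042 and 0.028 at 50 µM, where its sign turned, between -0.232 and -0.13 at 100 µM, and between -0.201 and -0.117 between the doses. With 1 library left out, the counts ranged from 0 to 7 higher and 0 to 12 lower at 50 µM, from 0 to 1 higher and 2 to 17 lower at 100 µM, and from 0 to 2 higher and 0 to 16 lower between the doses. With only the groups compared in the fit, the counts were 3 higher and 12 lower at 50 µM and 0 higher and 2 lower at 100 µM. DESeq2 gave 1 higher at 50 µM and 10 lower between the doses. Limma on log2 FPKM gave 1 higher at 50 µM with either pseudocount, and 4 (pseudocount 1) and 3 (pseudocount 0.1) lower between the doses. With both libraries that stand apart left out, the counts were 14 higher and 16 lower at 50 µM, 23 lower at 100 µM, and 5 higher and 21 lower between the doses. In that last comparison 3 genes changed sign: PSMB9 (log2 -0.44, adjusted p = 0.0242), PSMC4 (0.19, adjusted p = 0.00517) and PSME3 (0.14, adjusted p = 0.0429). The cause was not tested.

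With a replicate block, 0 genes were lower at 50 µM, and 0 were higher and 7 lower at 100 µM. Deviations of same-numbered libraries correlated between -0.464 and 0.276, and those of differently numbered libraries between -0.409 and 0.533. Pairing by replicate number was not seen in these values. They cannot exclude it, since deviations within a group of 3 are not independent. Fitted changes near the median SE of 0.0916 are not detectable with 3 libraries a group.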
